A study of Homo sapiens with 8 samples.

Results

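The genes described here encode the subunits of integrins and the chains of laminins. They are all genes in the deposited table whose probe sets carry exactly 1 symbol of the form ITGA, ITGB, LAMA, LAMB or LAMC with its number or letter, and each gene is read from 1 probe set, that of the highest mean level. The rule found 35 genes with 95 probe sets, among 19775 genes with 1 symbol and 54613 probe sets on the array. Of the 35, 25 are integrin and 10 are laminin genes. Another 5 probe sets carry an integrin or laminin symbol together with a second symbol and were left out. The cells were HCT116, an established human colorectal carcinoma line, grown in DMEM with serum and treated the day after seeding. The groups were FK228 at 20 nM, largazole at 20 nM, SAHA at 2 µM and vehicle, each for 10 h and each with 2 arrays. FK228 (romidepsin) and largazole are cyclic depsipeptides and SAHA (vorinostat) is a hydroxamic acid, and all 3 inhibit histone deacetylases. The series is a single line at 1 time and 1 dose of each compound. No label tells whether the duplicates are separate cultures, and the p-values therefore cover the spread between the samples at hand, which may be technical.

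Integrins are transmembrane receptors made of an alpha and a beta subunit, which join the extracellular matrix outside the cell to the actin cytoskeleton, or in hemidesmosomes to keratin filaments, inside it. Laminins are secreted trimers of an alpha, a beta and a gamma chain, and they form the sheet of the basement membrane on which epithelial cells of the intestine rest. The alpha subunit largely sets which ligand an integrin binds, so that some integrins bind laminin, others collagen, and others the RGD motif of fibronectin and vitronectin.

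The array medians lay between 4.47 and 4.51 on the log2 scale, and the arrays of a group correlated with Pearson's r of 0.995 to 0.997 across all probe sets. The 8 epithelial markers fixed for the line all passed the level filter, with EPCAM at a mean log2 level of 12.36 and the keratin KRT18 at 12.85. Of the leukocyte markers 2 of 6 on the array passed, CSF1R (4.99) and CD79A (5.56). PTPRC (2.58), CD3E (3.94), LYZ (2.80) and CD14 (4.03) did not. The filter asks only that the second-highest of the 8 values reach the median of the table, 4.49. Nerve and muscle markers also passed at low levels, with GFAP at a mean of 4.65, DES at 4.99 and SOX10 at 5.47. A level near 5 is therefore no sign of expression by itself, and levels of different probe sets are not set against each other here.

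Of the 35 genes, 27 passed the filter, 20 integrins and 7 laminins, and 23 of these reached it on all 8 arrays. The 8 under it were ITGA1, ITGA4, ITGA9, ITGAD, ITGAX, LAMA1, LAMA4 and LAMB4, whose single values lay between 2.68 and 4.64. They were not tested. Nearest below the threshold stood ITGA9, with a second-highest value of 4.37, and nearest above it ITGA10 (4.54) and ITGB2 (4.55). ITGB8 passed only through the vehicle arrays and ITGA10 only through the FK228 arrays, so each was bound to stand apart in that group. Their own values are given as a description and not as a test, and the counts over all 27 genes include both.

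**Figure D1:**
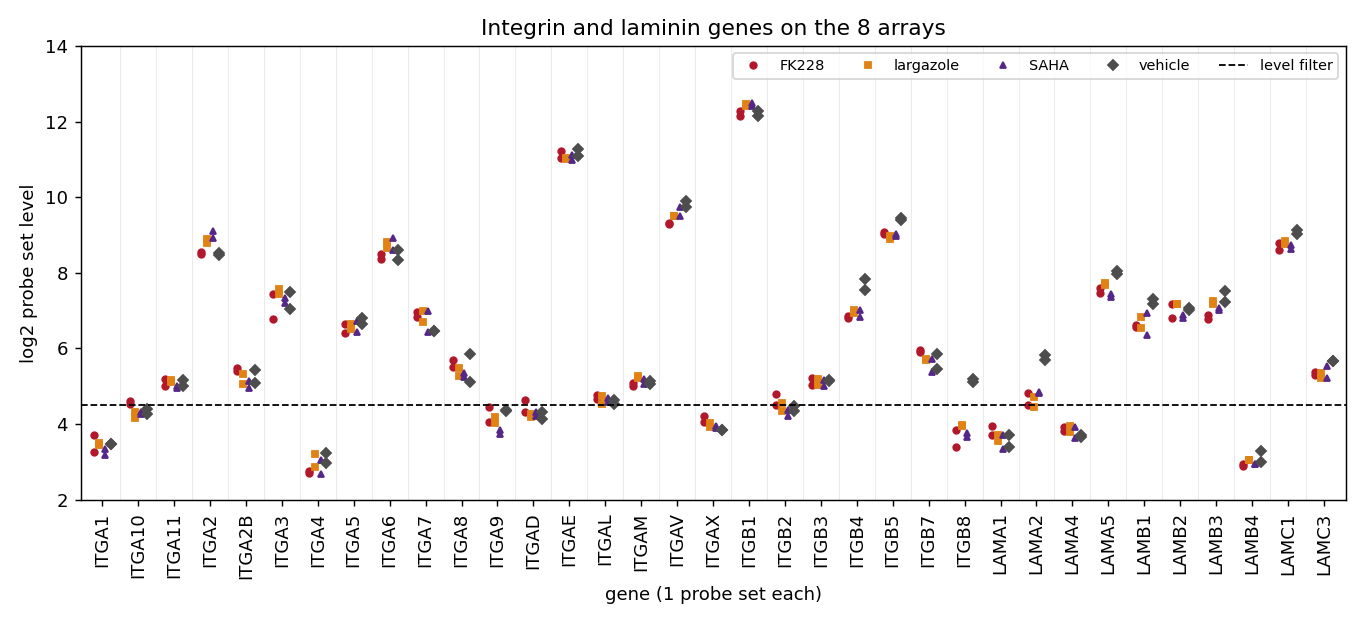
The log2 probe set level of the 35 integrin and laminin genes is plotted for each of the 8 arrays, with FK228, largazole, SAHA and vehicle side by side and the level filter of 4.49 as a dashed line. Points of ITGB1, ITGAE and ITGAV lie far above the filter on every array, and ITGB8 lies above it on the vehicle arrays alone; levels of different genes come from different probe sets and are not comparable.

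Against vehicle, the laminin chains that passed the filter were lower or did not pass the test, and none rose with any compound. Differences are log2 levels of the treated arrays minus vehicle, and a gene is called where its limma adjusted p is under 0.05. In whole cultures, fewer cells that make an RNA and less of it per cell cannot be told apart. With FK228, 6 of 7 laminin genes and 4 of 20 integrin genes fell and 0 of either rose. With largazole, 4 laminin and 4 integrin genes fell and the integrin gene ITGA2 rose. With SAHA, 5 laminin and 3 integrin genes fell and ITGA2 rose. ITGB8, which passed the filter through vehicle alone, is counted among the integrin genes that fell with each compound. In all, FK228 changed 10 of the 27 genes (37.0%), against 52.8% of all 13373 genes tested, largazole 9 (33.3%) against 45.2%, and SAHA 9 (33.3%) against 47.4%. Without ITGB8 and ITGA10, which each passed through 1 group, 25 genes remain, of which FK228 changed 9 (36.0%), largazole 8 (32.0%) and SAHA 8 (32.0%). Among these 25, 9 fell with FK228, 7 with largazole and 7 with SAHA. Of all 27, the count with largazole was 4 without either largazole array or without vehicle replicate 2, and 5 without vehicle replicate 1. Read by direction, 10 of the 27 fell with FK228 (37.0%), beside 27.0% of all genes lower and 25.7% higher. With largazole 8 fell (29.6%), beside 23.2% lower and 21.9% higher. With SAHA 8 fell (29.6%), beside 25.2% lower and 22.1% higher. The treated and vehicle arrays did not overlap for 16 of the 27 with FK228, against 76.2% of all genes, for 17 with largazole, against 74.4%, and for 14 with SAHA, against 73.0%. ITGB8 is counted there with each compound and ITGA10 with FK228, which their way through the filter fixed in advance. The share of members called was thus below that of all genes with each compound, and the called members lay almost entirely on the lower side. With the mean of all tested probe sets, 3 members rose and 8 fell with SAHA. That setting gave 1 rise and 10 falls with FK228, and 1 rise and 8 falls with largazole. The rise with FK228 was that of ITGA10, which passed through the FK228 arrays alone, and the falls with each compound include ITGB8.

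The sizes were modest. Called and at least 2-fold were ITGB8 and LAMA2 with FK228 (2 of 27, against 13.9% of all genes), the same genes with largazole (2 of 27, against 9.09%) and ITGB8 with SAHA (1 of 27, against 9.89%). Without ITGB8 this leaves LAMA2 with FK228 and largazole, and no gene with SAHA. The median log2 difference of the 27 was -0.05 with FK228, -0.08 with largazole and -0.15 with SAHA, where that of all tested genes was 0.01, 0.00177 and -0.02. The 7 laminin genes had medians of -0.47, -0.31 and -0.40 with FK228, largazole and SAHA, and the 20 integrin genes -0.01, 0.0045 and -0.10. The 3 comparisons share the 2 vehicle arrays, so their values are given side by side and not as separate evidence.

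**Figure D2:**
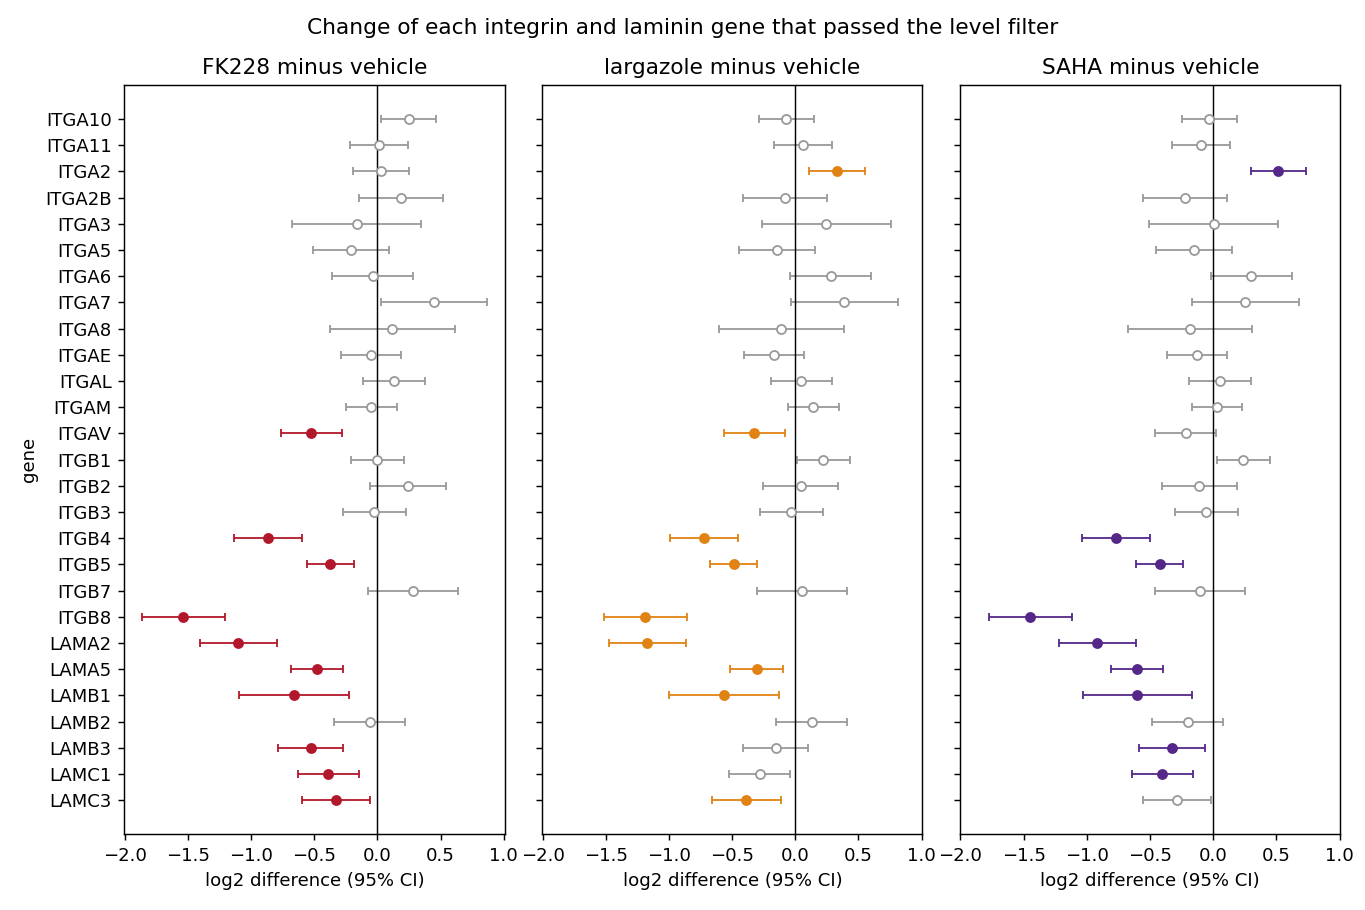
The log2 difference from vehicle is plotted with its 95% confidence interval for the 27 genes that passed the filter, in 1 panel for each compound; filled points passed an adjusted p of 0.05 and open grey points did not. The laminin genes at the bottom lie mostly left of 0, the point of ITGB8 rests on a probe set that reached the level filter with vehicle alone, and ITGA2 lies right of 0 with largazole and SAHA.

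Promoters are shown for 5 genes: 3 laminin genes that fell with each compound, the integrin gene that reached the filter with vehicle alone, and the gene that rose with largazole and SAHA. Each is the 250 bases before the RefSeq start of the gene in GRCh38.p14, read 5′ to 3′ on the gene's strand. Capitals mark GC boxes, the letters GGGCGG or their reverse complement CCGCCC, the core bound by SP1 and Krüppel-like factors. They lie at chr6:128882888-128883137 (plus strand) for LAMA2, chr20:62367313-62367562 (minus strand) for LAMA5, chr7:108003162-108003411 (minus strand) for LAMB1, chr7:20330650-20330899 (plus strand) for ITGB8 and chr5:52989102-52989351 (plus strand) for ITGA2.
LAMA2: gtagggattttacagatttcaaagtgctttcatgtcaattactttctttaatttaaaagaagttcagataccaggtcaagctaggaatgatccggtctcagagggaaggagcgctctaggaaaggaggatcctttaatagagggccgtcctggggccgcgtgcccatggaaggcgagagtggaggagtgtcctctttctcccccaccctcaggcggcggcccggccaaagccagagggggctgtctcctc
LAMA5: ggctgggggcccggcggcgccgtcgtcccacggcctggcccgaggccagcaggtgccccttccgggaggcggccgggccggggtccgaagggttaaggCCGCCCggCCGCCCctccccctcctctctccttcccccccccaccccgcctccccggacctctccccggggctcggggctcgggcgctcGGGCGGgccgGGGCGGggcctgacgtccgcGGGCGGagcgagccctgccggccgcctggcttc
LAMB1: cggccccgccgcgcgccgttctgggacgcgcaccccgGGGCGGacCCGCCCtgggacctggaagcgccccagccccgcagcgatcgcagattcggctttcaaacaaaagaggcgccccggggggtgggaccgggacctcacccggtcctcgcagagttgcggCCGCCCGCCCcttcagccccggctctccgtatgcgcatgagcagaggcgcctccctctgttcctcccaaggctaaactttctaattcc
ITGB8: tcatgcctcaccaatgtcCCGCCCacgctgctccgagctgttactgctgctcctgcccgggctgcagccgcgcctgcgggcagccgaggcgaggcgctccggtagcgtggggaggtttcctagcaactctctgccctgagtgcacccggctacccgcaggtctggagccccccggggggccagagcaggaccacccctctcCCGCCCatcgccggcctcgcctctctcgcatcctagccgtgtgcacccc
ITGA2: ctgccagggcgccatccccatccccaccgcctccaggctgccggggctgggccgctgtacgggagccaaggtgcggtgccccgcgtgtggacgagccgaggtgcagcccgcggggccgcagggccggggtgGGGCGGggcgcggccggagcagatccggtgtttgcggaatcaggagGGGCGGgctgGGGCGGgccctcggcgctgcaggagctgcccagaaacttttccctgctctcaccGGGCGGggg
The window of LAMA2 holds 0 GC boxes and 9 CpG dinucleotides, with 53.2% G and C, whereas that of LAMA5 holds 5 GC boxes and 32 CpG dinucleotides, with 82.8% G and C. LAMB1 has 4 GC boxes, of which the last pair overlap, and 28 CpG dinucleotides. ITGB8 has 2 GC boxes and 21 CpG dinucleotides, and ITGA2 has 4 and 26. The 3 laminin windows shown include some with and 1 without a GC box, and ITGA2 had as many boxes as LAMB1. The 5 genes were shown for their response, and a relation of boxes to response was not tested. The table gives 31 starts for 24 of the 35 members, and 16 of the 31 windows hold a GC box, against 42.6% of all 35116 windows of the same length. The letters TATAAA or TTTATA occur in 2 of the 31 against 10.7% of all windows, and CCAAT or ATTGG in 5 against 32.0%. These counts are descriptions of the sequence only, not of binding.

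Among the laminin alpha chains, LAMA2 (probe set 205116_at), the alpha chain typical of muscle and nerve basement membrane, read 4.49 and 4.82 on the FK228 arrays, 4.70 and 4.46 on the largazole arrays, 4.83 and 4.85 on the SAHA arrays, and 5.69 and 5.82 on the vehicle arrays. Every treated array lay below both vehicle arrays, and the treated values stood near the filter. The differences were -1.10 ± 0.131 with FK228 (SE, n = 2 arrays per group; limma adjusted p = 0.000279), -1.17 ± 0.131 with largazole (adjusted p = 0.000315) and -0.92 ± 0.131 with SAHA (adjusted p = 0.000912). The 2 other probe sets of LAMA2 that were tested fell as well. One, 216840_s_at, changed by -1.96 with FK228, -1.59 with largazole and -1.62 with SAHA, and the other, 213519_s_at, by -1.57, -1.21 and -1.12.

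LAMA5 (210150_s_at), the alpha chain found widely in adult epithelial basement membranes, read 7.61 and 7.46 with FK228, 7.72 and 7.68 with largazole, 7.45 and 7.37 with SAHA, and 7.96 and 8.06 with vehicle. Again the treated and vehicle arrays did not overlap. It fell with each compound, at -0.47 ± 0.0890 with FK228 (adjusted p = 0.00291), -0.31 with largazole (adjusted p = 0.0267) and -0.60 with SAHA (adjusted p = 0.0011). The call with largazole ended when any of the largazole or vehicle arrays was left out (adjusted p = 0.0547 to 0.134).

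Of the beta chains, LAMB1 (201505_at), the chain paired with LAMC1 in many laminins, read 6.63 and 6.56 with FK228, 6.82 and 6.55 with largazole, 6.95 and 6.35 with SAHA, and 7.32 and 7.19 with vehicle. The SAHA arrays lay far apart, but both stood below the vehicle arrays. The differences were -0.66 ± 0.186 with FK228 (adjusted p = 0.0198), -0.56 ± 0.186 with largazole (adjusted p = 0.0436) and -0.60 ± 0.186 with SAHA (adjusted p = 0.0323). These calls rest on few arrays. The FK228 call ended without either FK228 or either vehicle array (adjusted p = 0.0516 to 0.0968), the largazole call without any largazole, FK228 or vehicle array (0.0559 to 0.211), and the SAHA call without SAHA replicate 2 (-0.30, adjusted p = 0.141) or either vehicle array (0.136 and 0.0767). The second probe set, 211651_s_at, was called lower with all 3 compounds, at -0.35 with FK228, -0.58 with largazole and -0.38 with SAHA.

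LAMB3 (209270_at), which encodes a chain of the laminin that anchors hemidesmosomes in epithelia, read 6.78 and 6.89 with FK228, 7.16 and 7.25 with largazole, 7.01 and 7.06 with SAHA, and 7.22 and 7.51 with vehicle. The FK228 and SAHA arrays lay below both vehicle arrays, and the largazole arrays overlapped them. The gene fell with FK228 (-0.53 ± 0.111, adjusted p = 0.00526) and SAHA (-0.33, adjusted p = 0.0456), and differed by -0.15 with largazole (adjusted p = 0.317). The SAHA call was lost without any array but vehicle replicate 1 (adjusted p = 0.0551 to 0.254), and the difference was -0.18 without vehicle replicate 2. LAMB2 (216264_s_at), the other beta chain that partners LAMA5, was not called with any compound, with differences of -0.06, 0.13 and -0.20 with FK228, largazole and SAHA.

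Of the gamma chains, LAMC1 (200771_at), the gamma chain of most laminins, read 8.59 and 8.80 with FK228, 8.85 and 8.76 with largazole, 8.74 and 8.62 with SAHA, and 9.03 and 9.14 with vehicle. No treated array reached a vehicle array. It fell with FK228 (-0.39 ± 0.103, adjusted p = 0.0151) and SAHA (-0.40, adjusted p = 0.0148), and with largazole its difference of -0.28 missed the threshold (adjusted p = 0.0615). The FK228 call ended without FK228 replicate 1 (0.0906) or vehicle replicate 2 (0.0845) and the SAHA call without SAHA replicate 2 (0.0778) or vehicle replicate 2 (0.085). The second probe set of LAMC1, 200770_s_at, was not called, at -0.16, -0.10 and -0.15 with FK228, largazole and SAHA. LAMC3 (219407_s_at), a gamma chain of more restricted occurrence, read 5.30 and 5.37 with FK228, 5.22 and 5.34 with largazole, 5.22 and 5.54 with SAHA, and 5.67 on both vehicle arrays. It fell with FK228 (-0.33 ± 0.117, adjusted p = 0.0479) and largazole (-0.39, adjusted p = 0.0307), and its difference with SAHA was -0.29 (adjusted p = 0.0816). The FK228 call was lost without any of the FK228, largazole or vehicle arrays (0.0667 to 0.159) and the largazole call without any of the largazole or vehicle arrays (0.0676 to 0.152). Without SAHA replicate 2 the gene was called with SAHA too, at -0.45 (adjusted p = 0.0158).

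**Figure D3:**
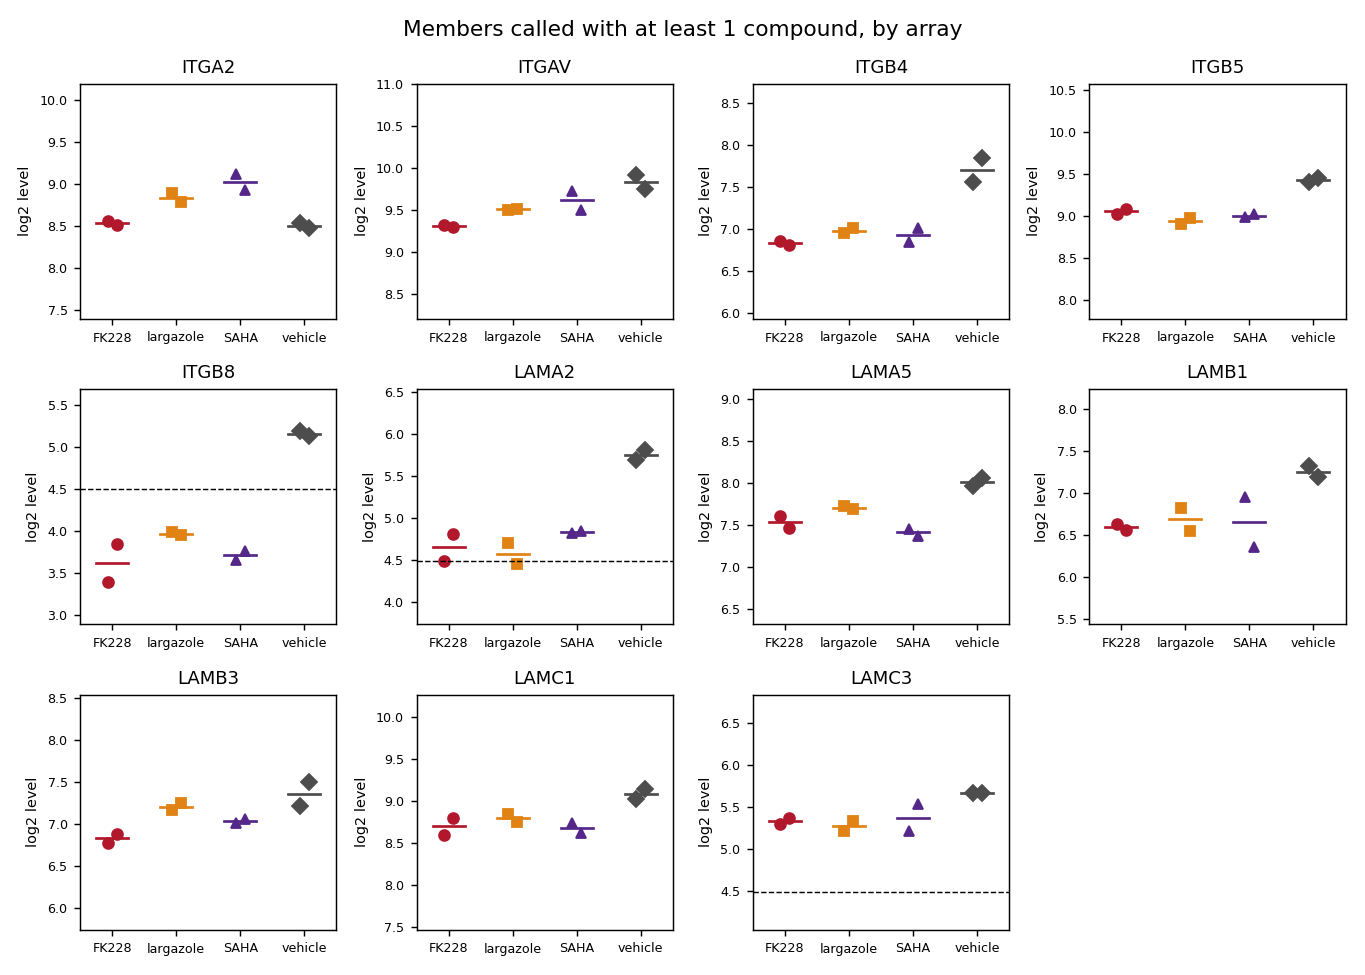
The log2 level on each array (points) and the mean of each group (lines) are plotted for the 11 genes called with at least 1 compound, on axes of equal span; the dashed line is the level filter of 4.49. In 10 of the panels the vehicle mean stands highest, and in the panel of ITGA2 the largazole and SAHA arrays stand above FK228 and vehicle.

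Among the laminin-binding integrins, ITGB4 (204990_s_at), the hemidesmosomal beta subunit that pairs with ITGA6, read 6.86 and 6.81 with FK228, 6.95 and 7.01 with largazole, 6.84 and 7.01 with SAHA, and 7.55 and 7.84 with vehicle. The treated arrays lay close to each other and all below vehicle. ITGB4 fell with each compound, at -0.86 ± 0.116 with FK228 (adjusted p = 0.000509), -0.72 with largazole (adjusted p = 0.00182) and -0.77 with SAHA (adjusted p = 0.00117). These calls held with any array left out, but the probe sets of ITGB4 differed. Probe set 204989_s_at changed by -0.48, -0.16 and -0.30 with FK228, largazole and SAHA, called with FK228 alone (adjusted p = 0.0205), while 230704_s_at was at 0.07, 0.19 and 0.13 with no call. The mean of the tested probe sets gave -0.42, -0.23 and -0.31, called with each compound.

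ITGA6 (201656_at), the laminin-binding alpha subunit that ITGB4 needs as its partner, read 8.49 and 8.36 with FK228, 8.66 and 8.82 with largazole, 8.92 and 8.61 with SAHA, and 8.60 and 8.33 with vehicle. The largazole and SAHA arrays lay above the vehicle arrays and the FK228 arrays overlapped them. None of the differences was called, at -0.04 with FK228 (adjusted p = 0.848), 0.28 with largazole (0.148) and 0.30 with SAHA (0.115). The second probe set, 215177_s_at, was called higher with SAHA at 0.43 (adjusted p = 0.0357). ITGA3 (201474_s_at), which pairs with ITGB1 to bind epithelial laminins, varied widely within groups, with 6.77 and 7.43 on the FK228 arrays and 7.05 and 7.48 on the vehicle arrays, and its differences of -0.16, 0.25 and 0.00 with FK228, largazole and SAHA were not called. ITGA7 (216331_at), a laminin receptor typical of muscle, differed by 0.45 with FK228 (adjusted p = 0.076), 0.39 with largazole (0.131) and 0.25 with SAHA (0.303). Leaving out either SAHA array brought ITGA7 under the threshold with FK228 (0.0155) and largazole (0.0324), and without SAHA replicate 1 it was called with SAHA too (0.54, adjusted p = 0.0225). The FK228 and largazole differences stayed the same without a SAHA array, and only the spread that all groups share in the fit had changed. The second probe set of ITGA7, 209663_s_at, went the other way with SAHA, at -0.43 (adjusted p = 0.0159).

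The collagen receptor subunit ITGA2 (227314_at) was the only member called higher on its chosen probe set. It read 8.55 and 8.51 with FK228, 8.89 and 8.78 with largazole, 9.11 and 8.92 with SAHA, and 8.53 and 8.47 with vehicle. The SAHA and largazole arrays lay above every FK228 and vehicle array, and the FK228 and vehicle arrays overlapped. ITGA2 rose by 0.52 ± 0.0945 with SAHA (adjusted p = 0.0031) and by 0.33 ± 0.0945 with largazole (adjusted p = 0.0248), and with FK228 the difference was 0.03 (adjusted p = 0.834). The largazole call ended when any largazole or vehicle array was left out (0.0584 to 0.139). The second probe set, 205032_at, gave 0.48 with SAHA (adjusted p = 0.0078), 0.15 with largazole (0.315) and 0.21 with FK228 (0.147). The other collagen-binding subunits that passed, ITGA10 and ITGA11, were not called, and ITGA10, which reached the filter with FK228 alone, read 4.54 and 4.60 with FK228 and 4.17 to 4.39 on the other arrays.

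Among the receptors of RGD ligands, ITGAV (202351_at), the alpha subunit shared by the vitronectin receptors, read 9.32 and 9.29 with FK228, 9.50 and 9.51 with largazole, 9.73 and 9.50 with SAHA, and 9.91 and 9.75 with vehicle. All treated arrays lay below the vehicle arrays, the FK228 arrays lowest. It fell with FK228 (-0.52 ± 0.104, adjusted p = 0.00399) and largazole (-0.33, adjusted p = 0.0389), and its difference with SAHA was -0.22 (adjusted p = 0.132). The largazole call was lost without any of the largazole, FK228 or vehicle arrays (0.0511 to 0.19). ITGA5 (201389_at), the alpha subunit of the main fibronectin receptor, was at -0.21, -0.14 and -0.15 with FK228, largazole and SAHA, with no call.

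The beta partners of ITGAV divided. ITGB5 (201125_s_at), a vitronectin receptor subunit, read 9.02 and 9.08 with FK228, 8.90 and 8.97 with largazole, 8.98 and 9.02 with SAHA, and 9.40 and 9.44 with vehicle. The treated arrays did not overlap the vehicle arrays, and all groups were tight. ITGB5 fell with each compound, at -0.37 ± 0.0797 with FK228 (adjusted p = 0.00567), -0.49 with largazole (adjusted p = 0.00203) and -0.42 with SAHA (adjusted p = 0.00358). Its 3 other tested probe sets also lay below vehicle with each compound, and 214021_x_at was called lower with all 3, at -0.77, -0.79 and -0.45. Probe set 201124_at, which stands for the gene when sets named _x_at or _s_at are left out, was called with largazole (-0.35) but not with FK228 (-0.20, adjusted p = 0.188 there) or SAHA (-0.27, 0.0839).

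ITGB8 (226189_at), the subunit of an integrin that activates latent TGF-beta, was above the filter with vehicle alone. It read 3.39 and 3.84 with FK228, 3.98 and 3.95 with largazole, 3.65 and 3.76 with SAHA, and 5.18 and 5.12 with vehicle. Every treated array lay below both vehicle arrays and under the filter. With the filter taken as the lowest level, the mean was at least 1.58-fold lower with each compound than with vehicle. No p is given, because the gene entered the test through the vehicle arrays, and the 4 other probe sets of ITGB8 did not pass the filter. ITGB3 (204628_s_at), best known from platelets and endothelium, stayed within 5.01 and 5.23 on all arrays and was not called.

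ITGB1 (211945_s_at), the common partner of most alpha subunits, read 12.27 and 12.16 with FK228, 12.46 and 12.41 with largazole, 12.50 and 12.40 with SAHA, and 12.28 and 12.14 with vehicle. The largazole and SAHA arrays stood above the vehicle arrays, and the FK228 arrays lay within the vehicle range. The differences of 0.00 with FK228 (adjusted p = 1), 0.22 with largazole (0.0901) and 0.24 with SAHA (0.0667) were not called. Both other probe sets of ITGB1 that were tested were called higher with SAHA, 1553530_a_at at 0.64 (adjusted p = 0.0114) and 1553678_a_at at 0.47 (adjusted p = 0.00648), and the mean of the tested probe sets was called as well (0.45, adjusted p = 0.00343). With FK228 these 2 probe sets were at 0.39 and 0.21 and with largazole at 0.10 and 0.22, with no call.

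Of the leukocyte integrin genes, 5 of 7 passed the filter and none was called with any compound. ITGAE (205055_at), which encodes the alpha subunit that binds E-cadherin in intraepithelial lymphocytes, read 11.05 and 11.21 with FK228, 11.03 and 11.00 with largazole, 10.99 and 11.12 with SAHA, and 11.10 and 11.27 with vehicle. It thus stood far above the filter on all 8 arrays. Of the leukocyte markers on the array, PTPRC, CD3E, LYZ and CD14 stayed under the filter, and CSF1R (4.99) and CD79A (5.56) passed. The source of the ITGAE signal was not tested. The partner gene of ITGAE, ITGB7, lay between 5.36 and 5.95. The differences of ITGB7 were 0.28 with FK228 (adjusted p = 0.171), 0.06 with largazole and -0.11 with SAHA. ITGAL, ITGAM and ITGB2 lay between 4.22 and 5.27 and differed from vehicle by at most 0.24. The remaining genes that passed, ITGA2B and ITGA8, were at -0.22 to 0.18 with no call; without vehicle replicate 1 ITGA8 was called with largazole (-0.47) and SAHA (-0.55), and without vehicle replicate 2 with FK228 at 0.48, the vehicle arrays reading 5.12 and 5.85. Without vehicle replicate 2, ITGB7 was called with FK228 at 0.48 (adjusted p = 0.0486).

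FK228 and largazole were given at the same dose and time, and this was the 1 pair of compounds tested against each other. Of the 27 genes, 0 differed between FK228 and largazole by limma, against 9.06% of all genes tested (4.19% higher, 4.88% lower and 0.523% called and at least 2-fold), and 5 had an unadjusted p under 0.05. Of those 5, ITGA10 passed the filter only through the FK228 arrays and ITGB8 lay under it in both groups, so neither gives a comparison. The other 3 were LAMB3 at -0.37 (95% interval -0.63 to -0.11, adjusted p = 0.0855), ITGA2 at -0.30 (-0.52 to -0.08, adjusted p = 0.0944) and ITGB1 at -0.22 (-0.43 to -0.01, adjusted p = 0.177), each as FK228 minus largazole. In alternative limma fits LAMB3 and ITGA2 were called with a replicate block (0.0398 and 0.0457) and under a stricter filter (0.0337 and 0.0344). With an intensity trend and robust prior, LAMB3 (0.0468), ITGA2 (0.034) and ITGB1 (0.0307) were called. The widest difference was that of ITGA3, at -0.41, with an interval of -0.92 to 0.10. For all 27 genes the interval lay inside a 2-fold difference either way, and for 21 of them inside 1.5-fold. The 27 include ITGA10 and ITGB8, whose intervals set no bound on a difference. The FK228 and largazole arrays did not overlap for 17 of the 27, or 63.0%, against 58.5% of all genes, with ITGA10 and ITGB8 among the 17. A smaller difference than the interval allows was not detectable with 2 arrays per group. SAHA was given at another dose, so its values stand beside the others and were not tested against them.

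**Figure D4:**
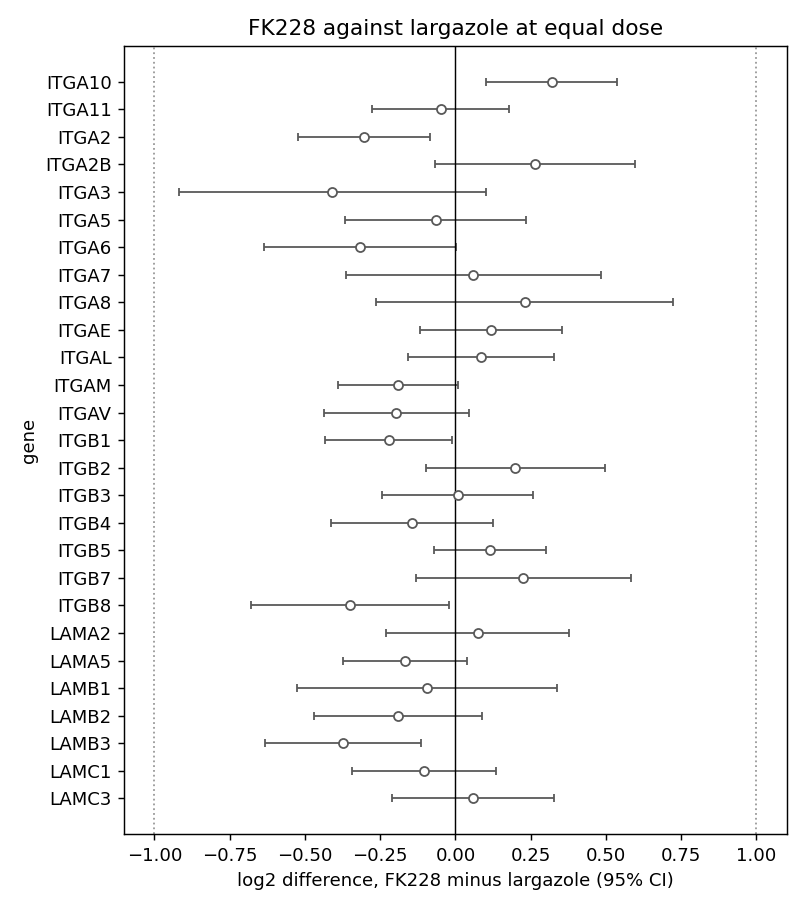
The log2 difference between the FK228 and largazole arrays is plotted with its 95% confidence interval for the 27 genes, and the dotted lines mark a 2-fold difference. No gene was called in the fit shown, and every interval lies between the dotted lines. Those of ITGA10, which passed the filter through FK228 alone, and ITGB8, under it in both groups, give no comparison.

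Of the 103 tested genes in 6 lists of adhesion partners, 36 rose and 27 fell with FK228 (35.0% and 26.2%, against 25.7% and 27.0% of all genes), 31 rose and 23 fell with largazole (30.1% and 22.3%, against 21.9% and 23.2%), and 31 rose and 29 fell with SAHA (30.1% and 28.2%, against 22.1% and 25.2%). These shares of all genes are those against which the count of each list below is to be read. The counts and medians include NEDD9 and CCN2, with vehicle means under the filter, and PLAT, with treated means under it. For such genes the way through the filter favoured the direction in which they are counted. Of 20 tested genes for matrix ligands and basement membrane, 12 rose and 2 fell with FK228, 10 rose and 1 fell with largazole, and 10 rose and 3 fell with SAHA, with medians of 0.47, 0.30 and 0.29. The matricellular gene CCN2, which lay under the filter with vehicle, was at least 8.62-fold higher with FK228, 5.44-fold with largazole and 4.73-fold with SAHA, with the filter as the lowest level. THBS1, the adhesive glycoprotein thrombospondin, rose by 2.35, 2.78 and 2.46. NPNT, which encodes the basement membrane ligand nephronectin, fell, with differences of -1.12 with FK228, -0.43 with largazole and -1.01 with SAHA, and so did COL4A5, a type IV collagen chain, at -0.92 with FK228 and -0.60 with SAHA. The fibroblast and endothelium markers, a list that shares COL1A1 with the ligands, were summed on the linear scale. The log2 of that sum ranged from 8.52 to 8.64 with FK228, 8.88 to 9.08 with largazole, 8.52 to 8.70 with SAHA and 8.28 to 8.30 with vehicle. In such a sum the highest values weigh most, here those of COL1A1, at a mean of 7.78. COL1A1 stood above both vehicle arrays on every treated array, and no other marker of the list did. The sum therefore does not show a rise of the list as a whole. Of those 10 markers 5 passed the filter, and COL1A2, COL3A1, LUM, CDH5 and KDR did not; their part in the result was not tested.

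Of 13 tested genes of laminin and matrix processing, 4 rose and 5 fell with FK228, 4 rose and 3 fell with largazole, and 4 rose and 6 fell with SAHA. PLAU, the urokinase plasminogen activator, fell, with differences of -2.33 with largazole and -3.01 with SAHA, and was at least 8.86-fold lower with FK228, where its mean of 4.45 lay under the filter. PLAT, the tissue plasminogen activator, had means of 3.51, 4.04 and 3.80 with FK228, largazole and SAHA, all under the filter, and 5.11 with vehicle, which makes it at least 1.53-fold lower with each compound. SERPINE2, a protease inhibitor that blocks both activators, rose by 0.86, 1.00 and 0.97, and the metalloproteinase inhibitor TIMP3 by 0.88, 0.84 and 0.67. Among 15 hemidesmosome and lateral partner genes, 5 rose and 3 fell with FK228 and 4 rose and 4 fell with each of largazole and SAHA. PLAUR, the urokinase receptor, fell, at -1.99 with FK228, -1.54 with largazole and -1.56 with SAHA, as did DST, a linker that ties ITGB4 to keratin filaments, at -1.48, -1.13 and -1.09. The tetraspanin CD82 rose by 0.75, 0.82 and 0.68, CD47, an integrin-associated protein, by 0.67 with largazole and 0.61 with SAHA, and the laterally associated BSG by 0.48 with FK228. CD47 and BSG are given only where they were among the 2 largest rises, and may have risen with the other compounds too.

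The remaining lists hold genes that act inside the cell. The values of each gene below are given for FK228, then largazole, then SAHA. Up to 2 rises and 2 falls of each list are named per compound. A gene given for fewer compounds may have changed with the others too. Of 22 activators and cytoplasmic linkers, 6 rose and 8 fell with FK228, 6 rose and 6 fell with largazole, and 7 rose and 7 fell with SAHA. RSU1, a partner of the ILK complex, rose by 1.04, 1.08 and 1.05, VCL, the actin linker vinculin, by 0.90 with FK228 and 0.73 with largazole, and TLN2, a talin, by 0.69 with SAHA. TNS3, a tensin, fell, at -2.09, -1.58 and -1.68, as did TGFB1I1, a paxillin relative, at -1.94, -1.84 and -2.01. Of 22 adhesion kinases and scaffolds, 7 rose and 7 fell with FK228, and 6 rose and 7 fell with each of largazole and SAHA. The scaffold NEDD9, whose vehicle level of 2.31 lay under the filter, was at least 3.98-fold higher with FK228, 3.82-fold with largazole and 3.54-fold with SAHA. The kinase FYN rose by 2.05, 2.03 and 2.01, while the kinase SRC fell, at -1.60, -1.02 and -1.43, as did the caveolar gene CAV1, at -1.51, -1.27 and -1.27. Of 11 genes for integrin inhibitors and traffic, 2 rose and 2 fell with FK228, 1 rose and 2 fell with largazole, and 0 rose and 2 fell with SAHA. SNX17, which returns integrins to the surface, fell, at -0.51, -0.45 and -0.46, as did DOK1, which competes with talin for beta tails, at -0.38, -0.43 and -0.30. KANK2, a talin-binding protein, rose by 0.66 with FK228 and 0.28 with largazole, and SWAP70, an actin-binding signalling protein, by 0.34 with FK228.

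Between FK228 and largazole, 3 of the 103 genes of these lists were called higher and 7 lower, in all 9.71%, near the 9.06% of all genes. GIT2, a focal adhesion scaffold, was higher with FK228 by 0.58 (adjusted p = 0.0127), CCN2 by 0.66 (adjusted p = 0.0118) and KANK2 by 0.37 (adjusted p = 0.0471). Among those lower with FK228 were PLAU (at least 1.76-fold, adjusted p = 0.0153), NPNT (-0.70, adjusted p = 0.0141), COL1A1, a fibrillar collagen chain (-0.67, adjusted p = 0.0348), TNS3 (-0.51, adjusted p = 0.0459) and PLAUR (-0.45, adjusted p = 0.0202). PLAT is counted among the 7, but lay under the filter in both groups and gives no difference.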

How the data were processed

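Total RNA of 8 samples was measured on Affymetrix arrays. The authors deposited log2 probe set levels, 1 column per array. Per the submitters' processing notes, affy, RMA and limma were among the tools; their versions and settings are not stated there. The table holds 54613 probe sets, of which 41091 carry exactly 1 gene symbol in the platform annotation, 1801 several and 11721 none. A level filter, the second-highest of a probe set's 8 values at or above the table median of 4.49, kept 28985 of them. Each gene was read from the probe set of its highest mean level, and 13373 genes were tested.

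A single linear model over the 8 arrays, with a term for each group and empirical Bayes variances, was fitted in limma 3.58.1 (R 4.3.3). For each of 4 comparisons, p-values were adjusted by Benjamini-Hochberg over the 28985 probe sets, with 0.05 as the threshold for a call. Differences are log2, with the standard error (SE) of the fit or its 95% confidence interval. The small number of arrays limits the precision, with a median interval half-width of 0.26. A fold against a group mean under the filter is a bound, with the filter as the lowest level. With 2 arrays a group the smallest two-sided p that exact permutation allows is 0.333, so no such test was run.

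Every member is named. Of each of 6 lists of adhesion partners, counts are given in both directions, with up to 2 rises and 2 falls for each comparison. The members and lists were chosen with earlier results of these data known. Alternatives were other filters, priors, array weights, scalings, probe set choices and sample sets, a replicate block, and each array left out in turn. All groups share an estimate of spread in the fit. Leaving out an array can therefore change a call between other groups while their difference stays the same. Promoter sequences are RefSeq's (GRCh38.p14). Figures used matplotlib 3.10.9, and tables pandas 2.3.3 under Python 3.11.15.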

Additional observations from a re-analysis of the deposited data

How the results depend on the processing

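Over 18 alternative settings, 1856 member values were compared with the reported ones. Of these, 1747 kept their side of the threshold, 65 lost a call, most of them with an array left out, and 44 gained one. Among values called in either setting, 0 changed direction. A value called in neither could change direction and still count among the 1747. An example is ITGA7 with SAHA, at 0.25 as reported and -0.09 with the mean of all tested probe sets. Without probe sets named _x_at or _s_at, ITGB4, LAMA5 and LAMC3 had no tested probe set and could not be called. Of the FK228 calls only that of ITGB5 was lost in that setting by its own p. The number of members called with largazole was 4 without the level filter and 4 to 10 with an array left out. With SAHA it was 6 to 9 with an array left out. With FK228 it was 7 to 11 with an array left out, and 6 without probe sets named _x_at or _s_at. Between FK228 and largazole 0 members were called as reported, 2 under a stricter filter (6.87), 3 with an intensity trend and robust prior, 1 with the mean of all tested probe sets, and 0 to 1 with an array left out (ITGB8 without FK228 replicate 2, under the filter in both groups). With the replicate block 3 were called there: LAMB3 (adjusted p = 0.0398), ITGA2 (0.0457) and ITGA10. ITGA10 was also the 1 member called with the mean of all tested probe sets. It passed only through the FK228 arrays, so no p is given for it. Same-numbered arrays correlated at r = 0.128 to 0.268 over the pairs of groups, but the labels do not say that a number marks a shared batch. The block also brought under the threshold ITGB1 with largazole (0.0362) and SAHA (0.0259), LAMC3 with SAHA (0.0471) and ITGA7 with FK228 (0.0356). ITGA10 with FK228 is counted among the gained calls too, but its way through the filter makes this no test. ITGB1 was also called with largazole and SAHA under the stricter filter (0.0387 and 0.027) and with the trend and robust prior (0.00945 and 0.00544). With SAHA it was called with equal ribosomal protein medians (0.0397) and further quantile normalization (0.0483) too. Without the filter or with array weights ITGB1 was not called.

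Over all probe sets, those called without _x_at or _s_at sets, where fewer are tested, were 8592 with FK228 (14195 as reported), 7125 with largazole (11790), 7612 with SAHA (12666) and 1359 between FK228 and largazole (2385). That last count was 1058 without the filter, 3741 with the trend and robust prior, 3587 with the replicate block, 1240 in a fit of the 4 arrays alone, and 191 to 1991 with an array left out (191 and 315 without largazole replicates 1 and 2, 657 and 725 without FK228 replicates 1 and 2). Equal ribosomal protein medians turned its split of 1190 higher and 1195 lower into 1537 and 954. Where no construction shows it, the cause was not tested. Signal near background limits ITGB8, ITGA10 and ITGB2, and LAMA2 on the treated arrays. ITGA11, ITGA2B, ITGA8, ITGAL, ITGAM, ITGB3 and LAMC3 also lay near 5, a level that is no sign of expression by itself.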
